A study of Homo sapiens with 16 samples.

Results

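Drug efflux pumps and xenobiotic sensors were followed in 2 human colorectal cancer cell lines treated with itraconazole. They were 10 genes named by symbol, the nuclear receptor NR1I2 (PXR), the aryl hydrocarbon receptor AHR, the cytochromes CYP1A1, CYP1B1 and CYP3A5, and the ATP-binding cassette (ABC) pumps ABCB1, ABCC1, ABCC2, ABCC3 and ABCG2. All 10 were matched to 1 of the 54127 Ensembl gene identifiers counted in every library. The choice was made by gene function and used no measured value. On GRCh37 the receptors lie on 2 chromosomes, NR1I2 at chr3:119499331-119537334 (plus) and AHR at chr7:16955983-17385776 (plus). The cytochromes are CYP1A1 at chr15:75011883-75017877 (minus), CYP1B1 at chr2:38294116-38337044 (minus) and CYP3A5 at chr7:99245817-99277619 (minus). The pumps are ABCB1 at chr7:87132333-87342639 (minus), ABCC1 at chr16:16042995-16237114 (plus), ABCC2 at chr10:101542397-101612351 (plus), ABCC3 at chr17:48712138-48769614 (plus) and ABCG2 at chr4:89011302-89152780 (minus).

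The RNA came from HT55 and SW948, established colorectal cancer lines grown adherent in medium with foetal bovine serum and antibiotics. Each line was exposed for 6 days to 5 µM itraconazole, an azole antifungal, or to its solvent DMSO. Each of the 4 groups (either line, with drug or solvent) held 4 libraries of single-end 50-base reads. The study's methods describe the experiments as run on 4 biological replicates. The question these genes pose is how the machinery that senses, oxidizes and exports foreign compounds was expressed in the 2 lines and whether it moved with the drug.

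PXR is a nuclear receptor that binds many drugs and bile acids, pairs with a retinoid X receptor and turns on CYP3A enzymes, conjugating enzymes and ABC pumps in liver and intestine. AHR is held in the cytosol by HSP90 with its co-chaperones. On binding planar aromatic ligands it enters the nucleus, pairs with ARNT and turns on CYP1A1, CYP1B1 and its own repressors. The pumps use ATP to carry compounds out of the cell. In epithelium ABCB1 (P-glycoprotein, MDR1), ABCC2 (MRP2) and ABCG2 (BCRP) lie on the apical side, and ABCC1 (MRP1) and ABCC3 (MRP3) on the basolateral side. Itraconazole itself is a known inhibitor of CYP3A4 and of P-glycoprotein.

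Promoter sequence is shown for 2 of the cytochromes, because CYP1A1 is the textbook AHR target and CYP3A5 belongs to the CYP3A family through which PXR is usually read. Both windows are the 250 bases before the RefSeq start site on GRCh38.p14, written 5′ to 3′ on the minus strand, where both genes lie. Capitals in the CYP1A1 window (chr15:74725529-74725778) mark the core of the AHR response element, GCGTG, sought on both strands. Capitals in the CYP3A5 window (chr7:99679997-99680246) mark an everted repeat, the arms TGAACT and AGGTCA with any 6 bases between them, which is a PXR-type element and was also sought on both strands.
CYP1A1: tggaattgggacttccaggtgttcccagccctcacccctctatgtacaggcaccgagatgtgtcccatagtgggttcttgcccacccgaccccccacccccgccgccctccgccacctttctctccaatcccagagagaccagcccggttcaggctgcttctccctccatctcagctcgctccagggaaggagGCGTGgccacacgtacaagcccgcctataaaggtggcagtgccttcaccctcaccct
CYP3A5: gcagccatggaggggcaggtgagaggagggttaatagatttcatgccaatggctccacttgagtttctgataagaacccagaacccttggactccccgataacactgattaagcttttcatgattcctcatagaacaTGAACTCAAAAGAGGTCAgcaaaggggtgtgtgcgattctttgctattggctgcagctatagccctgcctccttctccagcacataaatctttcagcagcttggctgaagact
The AHR core was found in 32.2% of the 34943 RefSeq windows of this length, and in CYP1A1 it began 57 bases before the start. Among the 10 genes, windows of ABCB1 and ABCG2 held the core as well. The everted repeat was found in 3 windows, which is 0.00859% of them. These belonged to CYP3A5, CYP3A4 and ITGB1BP2, and in CYP3A5 it began 113 bases before the start. Its left arm alone, TGAACT, was in 8.81% of windows, among them 1 each of NR1I2 and ABCB1. Windows existed for 7 of the 10 genes. A match describes the letters in a window and is not a measured binding site.

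Gene counts ranged from 8269406 to 11110814 per library. Levels are given as counts per 1000000 (CPM) on library sizes scaled by trimmed mean of M-values (TMM), or per kilobase of exon (RPKM) where genes are compared with each other. A gene was called changed when its adjusted p was under 0.05 in edgeR's quasi-likelihood test with Benjamini-Hochberg adjustment over all genes tested. Scaling to plain library totals instead moved the median log2 change of all genes from -0.015 to -0.18 in HT55 and from -0.025 to -0.35 in SW948, so changes below are relative to the median gene. On the first principal component of its line, itraconazole replicate 3 of HT55 lay 71.2% of the mean treated shift from the controls and replicate 1 of SW948 lay 88.3%, nearer to DMSO than the other treated libraries. All 8 epithelial markers (EPCAM, CDH1, KRT8 and others) were detected in every group, and their members moved both ways. In SW948 5 rose with itraconazole and CDH1 (-0.23 ± 0.082 SE), VIL1 (-0.63 ± 0.070 SE) and CDX1 (-0.73 ± 0.12 SE) fell, and in HT55 3 rose and KRT19 (-0.19 ± 0.061 SE) fell. Their summed levels were 9313 to 9514 CPM in HT55 with DMSO and 11061 to 13779 with itraconazole, and 5409 to 5655 and 8114 to 10965 in SW948. The 6 fibroblast markers summed to 1.41 to 2.14 CPM in HT55 with DMSO and 3.33 to 3.98 with itraconazole, and to 2.54 to 4.69 and 9.95 to 12.1 in SW948. PDGFRB rose in HT55 (1.25 ± 0.26 SE) and COL1A1 in SW948 (1.65 ± 0.18 SE), and COL3A1 was at 0 in every library. The 3 endothelial markers summed to at most 0.713 in any library. The leukocyte list was carried by CD68, a lysosomal protein gene that epithelium can express, and summed to 108 to 112 CPM in treated SW948 against 15.3 to 23.4 with DMSO, and to 21.0 to 61.2 against 27.6 to 32.2 in HT55, while CD3E was at 0 throughout. The hepatocyte list was carried in HT55 by SERPINA1 and summed to 87.8 to 475 CPM with itraconazole against 20.6 to 27.5 with DMSO, with TTR at 0 and ALB and APOA2 near 0, and to at most 1.82 in SW948. The part of these markers in the results below was not tested. In these bulk libraries, fewer cells of a kind and less RNA per cell cannot be told apart.

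The 2 lines carried different pumps before treatment. Per kilobase, ABCC3 was the highest of the 10 genes in HT55 with DMSO at 16.2 ± 0.717 RPKM (SD, n = 4), followed by ABCC1 at 10.1 ± 0.223, AHR at 7.54 ± 0.251 and ABCC2 at 4.22 ± 0.176. In SW948 with DMSO the order was AHR at 35.8 ± 3.12 RPKM, ABCB1 at 26.5 ± 1.04, ABCC3 at 22.8 ± 1.12 and ABCC1 at 5.58 ± 0.208. Summed over the 5 pumps, HT55 held 31.6 ± 0.774 RPKM and SW948 55.5 ± 1.33. ABCC3 made up 51.3% of that sum in HT55 and ABCB1 3.28%, against 41.0% and 47.8% in SW948. Exon lengths are those of GENCODE and not of the annotation behind the counts, so levels per length are approximate. Each length joins all annotated exons of a gene and not those of 1 transcript, giving 9815 bases for CYP3A5 and 3361 for CYP1A1. The order of genes depends on that choice. Not divided by length the order of ABCC3 and ABCB1 turned, and ABCC3 stood above ABCB1 in CPM in every untreated SW948 library. ABCB1, the drug pump with the broadest known substrate range, was a minor part of the pump RNA in HT55 and a large part in SW948.

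**Figure D1:**
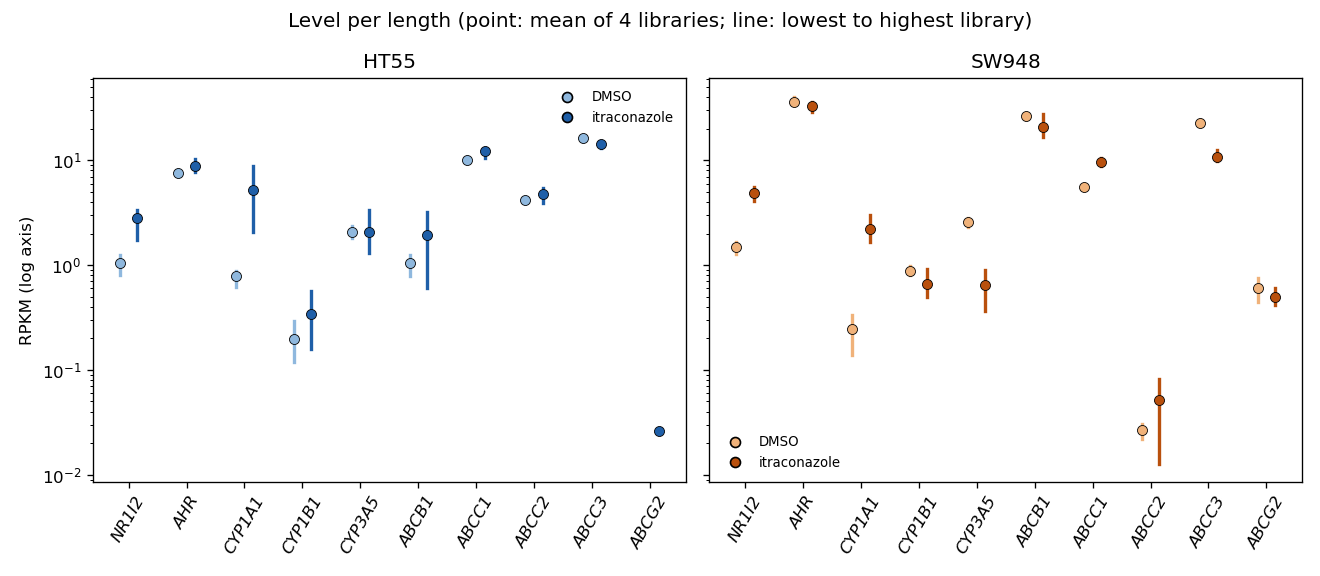
Levels per length of the 10 genes in HT55 (left) and SW948 (right), in RPKM on a log axis, as the mean of 4 libraries with a line from the lowest to the highest library; ABCG2 in HT55 has 0 counts in all DMSO libraries and in 1 treated library, so its DMSO point and its range are not drawn. ABCB1 stood at 1.04 RPKM in HT55 and 26.5 RPKM in SW948 with DMSO, and ABCC2 at 4.22 and 0.0266 RPKM.

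The plot of levels per length sets these profiles side by side. ABCC2 and ABCG2 passed the filter on low counts through 1 line each and are left out of the count. Of the 8 genes tested in both lines, 7 differed between the untreated lines, 5 higher in SW948 and 2 lower (edgeR, all 16 libraries). Of all genes tested, 75.9% passed the same test, 38.2% higher and 37.7% lower, and for 78.0% the 4 libraries of 1 line lay outside the range of the other. Against that background the count says little about these genes, and the sizes carry the description.

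ABCB1 was read at 5.09, 7.0, 6.47 and 8.07 CPM in the HT55 DMSO libraries and at 160.1, 174, 174 and 172 CPM in SW948. The mean was 25.6 times higher in SW948 (log2 4.68 ± 0.28 SE, adjusted p = 1.15e-11, edgeR). ABCC2, which exports conjugates across the apical membrane, went the other way. It stood at 33.2, 33.6, 34.3 and 31.1 CPM in HT55, while SW948 gave 3, 2, 2 and 3 counts, a mean of 0.209 ± 0.0324 CPM. The HT55 mean was 158 times the SW948 mean. The ranges of the lines lay far apart for both apical pumps.

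ABCG2, the third apical pump, was found in SW948 alone among untreated cells, with 53, 33, 42 and 32 counts and none in the 4 HT55 libraries. Taking 3 counts over the 4 HT55 libraries as the limit that 0 allows, SW948 was at least 41.4-fold higher. The basolateral pumps differed less. ABCC1, which exports glutathione conjugates, was lower in SW948 (48.7 ± 1.82 against 88.6 ± 1.95 CPM, log2 -0.86 ± 0.076 SE, adjusted p = 3.64e-09, edgeR). ABCC3, which exports glucuronides and bile salts, was higher there (219 ± 10.8 against 156 ± 6.90 CPM, log2 0.49 ± 0.074 SE, adjusted p = 6.51e-06, edgeR).

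Both receptors were higher in untreated SW948. AHR stood at 62.2, 58.2, 60.1 and 62.5 CPM in HT55 and at 270.1, 325, 283 and 275 CPM in SW948 (log2 2.25 ± 0.092 SE, adjusted p = 2.82e-14, edgeR). NR1I2 differed by less, 7.96 ± 0.843 against 5.59 ± 0.959 CPM (log2 0.51 ± 0.20 SE, adjusted p = 0.0256, edgeR). That call was lost without DMSO replicate 3 of HT55 (0.41, adjusted p = 0.0866) and without DMSO replicate 4 of SW948 (0.46, adjusted p = 0.0666). The AHR-linked cytochromes did not share a direction. CYP1B1 was higher in SW948 by log2 2.17 ± 0.33 SE (adjusted p = 7.08e-06, edgeR), and CYP1A1 was lower by log2 -1.70 ± 0.54 SE (adjusted p = 0.00803, edgeR) on 6 to 12 counts per SW948 library. CYP3A5 did not pass (log2 0.33, 95% interval -0.14 to 0.79, adjusted p = 0.185, edgeR), though it passed when fitted on the 8 DMSO libraries alone (0.34, adjusted p = 0.000815).

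Itraconazole was accompanied by higher RNA of the PXR gene and of CYP1A1 in both lines. Of the 9 genes tested in HT55, 5 were called changed, 4 higher and 1 lower, where 54.0% of all genes were called (27.5% higher, 26.5% lower). Of the 9 tested in SW948, 6 were called, 3 higher and 3 lower, against 80.2% of all genes (38.9% higher, 41.3% lower). Treated and control libraries did not overlap for 49.4% of all genes in HT55 and 74.7% in SW948. NR1I2, CYP1A1 and ABCC1 rose in both lines and ABCC3 fell in both, which makes 4 of the 8 genes tested in both. Over all 11448 genes tested in both lines, 39.4% were called in the same direction and 6.66% in opposite directions. Without the treated library nearest the controls, 7 genes were called in each line, while the calls over all genes went from 6553 to 7911 in HT55 and from 10030 to 10294 in SW948. The median log2 change of the 9 genes tested was 0.27 in HT55 (all genes -0.015) and -0.28 in SW948 (all genes -0.025). These 2 sets of 9 are not the same, as ABCC2 was in the HT55 set alone and ABCG2 in the SW948 set alone.

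**Figure D2:**
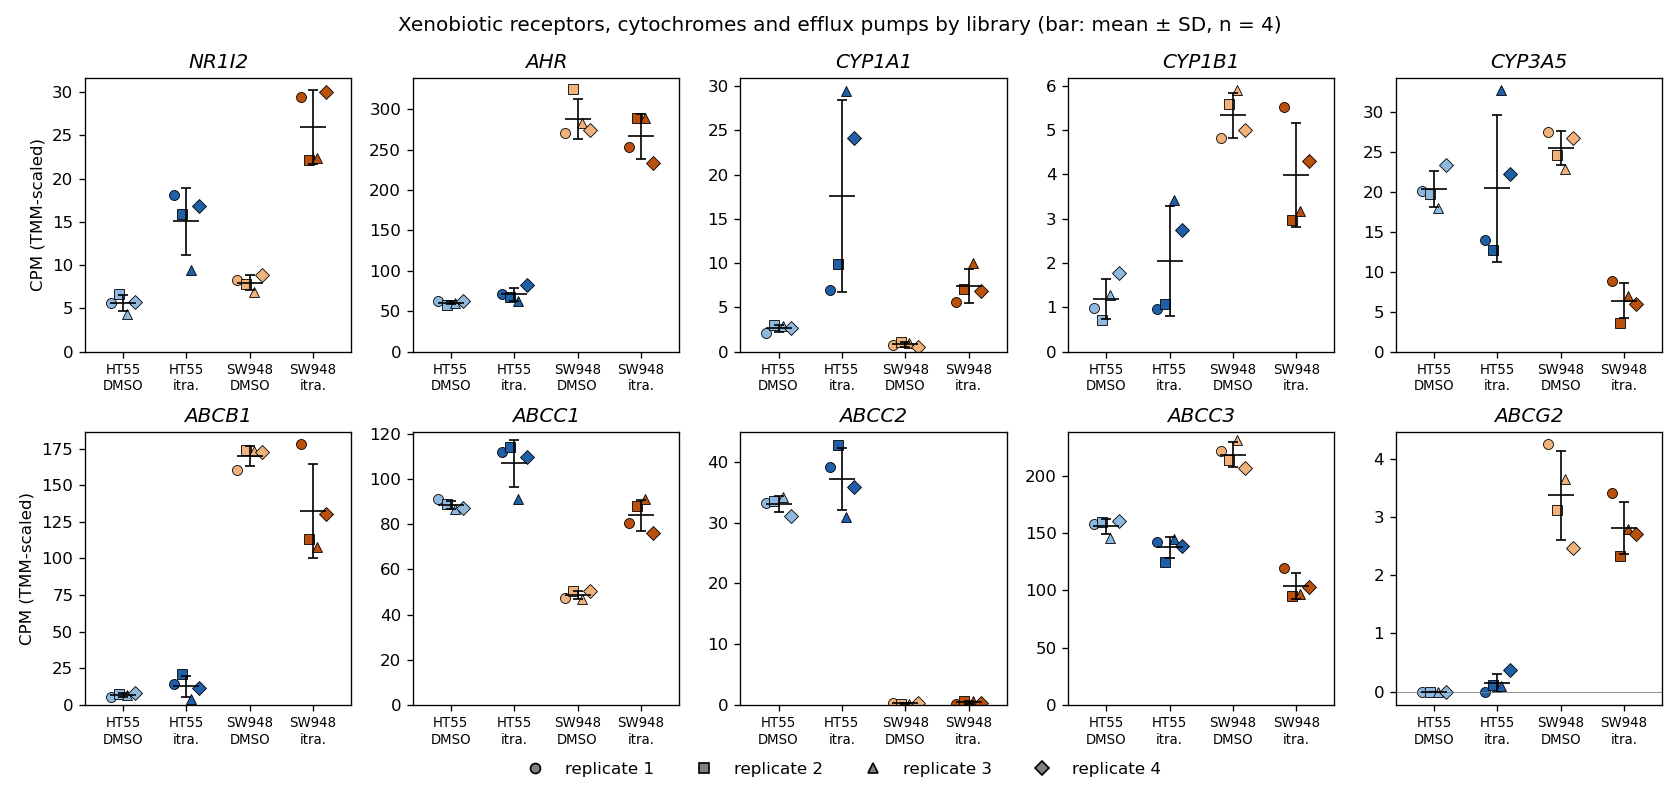
CPM of each of the 10 genes in all 16 libraries (TMM-scaled), by line and treatment, with the mean and SD of 4 libraries as bars and a symbol for each replicate number. NR1I2 and CYP1A1 lie higher in every treated library than in any DMSO library of the same line, and CYP3A5 separates from its controls in SW948 alone.

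The plot by library shows how the treated libraries scatter. NR1I2 was read at 5.63, 6.69, 4.35 and 5.69 CPM in HT55 with DMSO and at 18.1, 15.9, 9.42 and 16.8 CPM with itraconazole. Replicate 3 was the lowest treated library and still above every control. The rise was log2 1.41 ± 0.21 SE (adjusted p = 0.000372, edgeR). In SW948 the gene stood at 8.27, 7.86, 6.86 and 8.86 CPM and at 29.5, 22.2, 22.4 and 30.0 CPM with the drug, a rise of log2 1.67 ± 0.13 SE (adjusted p = 4.5e-08, edgeR). The means rose 2.69-fold in HT55 and 3.27-fold in SW948. The difference between the lines' responses did not pass (0.29, 95% interval -0.25 to 0.84, adjusted p = 0.358, edgeR interaction). Ordered by mean, the 4 groups ran from treated SW948 through treated HT55 and untreated SW948 to untreated HT55. Neighbours did not overlap on the TMM scale. On plain totals treated HT55 replicate 3, at 9.13 CPM, lay within the range of untreated SW948 (8.09 to 10.4 CPM).

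AHR moved little in either line. In HT55 the treated libraries held 71.6, 67.5, 62.3 and 82.0 CPM, and replicate 3 fell within the control range given above. The change of log2 0.22 ± 0.084 SE was at the edge of the threshold (adjusted p = 0.0489, edgeR). It was lost on plain library totals (0.050, adjusted p = 0.615) and when any 1 library other than treated replicates 2 and 3 was left out (0.14 to 0.24, adjusted p = 0.0685 to 0.123). In SW948 the treated libraries stood at 253, 289.8, 289.5 and 234 CPM, overlapping the controls, with a change of log2 -0.14 (95% interval -0.33 to 0.037, adjusted p = 0.129, edgeR). On plain totals it passed as a fall (-0.48, adjusted p = 4e-05). About 6.1% of the exon length of AHR lies under an antisense long noncoding RNA that was also counted. Whether counting used strand was not given in the sources used here, so reads from these partners cannot be told apart.

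CYP1A1, which oxidizes polycyclic aromatic compounds, showed the largest fold rise of the 9 genes tested in each line. The HT55 DMSO libraries held 2.06, 2.99, 2.87 and 2.61 CPM and the treated ones 7.01, 9.92, 29.4 and 24.1 CPM, from 19 to 29 and from 59 to 309 counts. All 4 treated libraries lay above the controls but spread widely among themselves. The rise was log2 2.74 ± 0.45 SE (adjusted p = 0.000618, edgeR). In SW948 CYP1A1 went from 0.722, 1.14, 0.955 and 0.462 CPM to 5.61, 7.10, 10.1 and 6.90 CPM (log2 3.14 ± 0.27 SE, adjusted p = 9.32e-08, edgeR). The responses did not differ between the lines beyond their error (0.43, 95% interval -0.89 to 1.75, adjusted p = 0.588, edgeR interaction). Even with the drug, the level per length stayed modest, at 5.24 ± 3.23 RPKM in HT55 and 2.21 ± 0.559 RPKM in SW948.

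CYP1B1, the other AHR-linked cytochrome, was not called in either line, while CYP1A1 rose in both. HT55 gave 9, 7, 12 and 15 counts with DMSO and 8, 9, 36 and 22 with itraconazole, and the groups overlapped (log2 0.82, 95% interval -0.18 to 1.82, adjusted p = 0.148, edgeR). Treated replicates 3 and 4 of HT55 were the highest for CYP1B1, as they were for CYP1A1. SW948 gave 60, 59, 68 and 65 counts with DMSO and 55, 23, 25 and 38 with the drug (log2 -0.42, 95% interval -0.83 to -0.0099, adjusted p = 0.0563, edgeR). Treated replicate 1 was the one inside the control range. Without it the change passed (-0.62, adjusted p = 0.00636), as it did on plain totals (-0.74, adjusted p = 0.00513). The antisense gene CYP1B1-AS1, counted as a gene of its own, overlaps 11.2% of the exon length of CYP1B1, so these counts carry the same limit as those of AHR.

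CYP3A5, the CYP3A enzyme of extrahepatic tissue, fell in SW948, and the lines differed in this response. SW948 held 27.5, 24.6, 22.8 and 26.7 CPM with DMSO and 8.82, 3.61, 7.0 and 5.99 CPM with itraconazole. The groups lay well apart, with a fall of log2 -2.01 ± 0.18 SE (adjusted p = 1.17e-07, edgeR). In HT55 the DMSO libraries held 20.1, 19.8, 17.9 and 23.4 CPM and the treated ones 14, 12.7, 32.7 and 22.2 CPM. Treated replicates 1 and 2 lay below the controls, replicate 3 above them and replicate 4 within their range. Replicates 3 and 4 were the higher treated pair for CYP1A1 and CYP1B1 too. Alignments that were not unique made up 27.3 and 27.9% in treated replicates 1 and 2, and 24.1 and 24.8% in 3 and 4. A link between these was not tested. The CYP3A5 change in HT55 was log2 0.019 (95% interval -0.55 to 0.59, adjusted p = 0.957, edgeR). Without replicate 3 it was -0.31 (adjusted p = 0.119), and on plain totals -0.13. The difference between the lines' responses was log2 -2.0 ± 0.34 SE (adjusted p = 6.87e-05, edgeR interaction). In SW948 CYP3A5 thus fell in the same libraries in which the PXR gene rose. Of the exon sequence of CYP3A5, 7.64% of 50-base windows occur elsewhere in the genome, more than for the other 9 genes, and counting of such reads could lower its values.

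Among the pumps, ABCC1 rose and ABCC3 fell in both lines, each with a larger change in SW948. ABCC1 stood at 47.4, 50.3, 46.9 and 50.3 CPM in SW948 with DMSO and at 80.4, 88.0, 91.4 and 76.3 CPM with itraconazole (log2 0.75 ± 0.074 SE, adjusted p = 3.79e-07, edgeR). In HT55 it went from 91.1, 89.1, 86.7 and 87.4 CPM to 112, 114, 91.3 and 110 CPM (log2 0.27 ± 0.075 SE, adjusted p = 0.0122, edgeR). Treated replicate 3 of HT55 was barely above the highest control, and on plain totals the HT55 rise did not pass (0.097, adjusted p = 0.193). The response was larger in SW948 by log2 0.51 ± 0.11 SE (adjusted p = 0.000482, edgeR interaction). With the drug, 2 of the 4 SW948 libraries lay below the range of untreated HT55, 1 within it and 1 just above.

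ABCC3 stood at 222, 214, 232 and 207 CPM in SW948 with DMSO and at 119.8, 94.8, 96.5 and 103 CPM with itraconazole. The fall was log2 -1.11 ± 0.077 SE (adjusted p = 1.18e-08, edgeR), with a wide gap between the groups. In HT55 the gene went from 158, 159, 146 and 161 CPM to 142, 125, 145 and 139 CPM, a fall of log2 -0.18 ± 0.066 SE (adjusted p = 0.0361, edgeR). The HT55 groups were close to touching, and the call was lost when any 1 library other than replicate 3 of either group was left out (-0.20 to -0.14, adjusted p = 0.0504 to 0.117). The response was larger in SW948 by log2 -0.90 ± 0.11 SE (adjusted p = 1.26e-06, edgeR interaction). Treatment turned the order of the lines around: SW948 had the higher level with DMSO and the lower one with itraconazole. On the TMM scale there was no overlap in either case. On plain totals the treated lines overlapped, at 116 CPM in SW948 replicate 1 and 108 CPM in HT55 replicate 2.

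ABCB1 responded differently in the 2 lines. In HT55 with itraconazole it stood at 14, 20.8, 3.90 and 11.6 CPM, so that replicate 3 was below all 4 controls and the other 3 libraries above them. The change was log2 0.90 ± 0.39 SE (95% interval 0.038 to 1.76) and missed the threshold (adjusted p = 0.0725, edgeR). Without replicate 3 it passed (1.23, adjusted p = 0.000145), as it did in DESeq2's Wald test (0.92, adjusted p = 0.0350). The change also passed with no filter (0.89, adjusted p = 0.0133, edgeR) and in the fit on all 16 libraries (0.89, adjusted p = 0.0270, edgeR). On plain totals it did not (0.71, adjusted p = 0.124, edgeR). In SW948 the treated libraries held 178, 113, 108 and 130.3 CPM. Replicate 1 was above all 4 controls and the other 3 below them, for a fall of log2 -0.39 ± 0.12 SE (adjusted p = 0.0090, edgeR). That call was lost in the fit on all 16 libraries (-0.36, adjusted p = 0.136). On plain totals the fall was larger (-0.71, adjusted p = 0.000495, edgeR). All 4 treated libraries then lay below the controls, with replicate 1 at 172 CPM against 188 in the lowest control. In each line the treated library against the trend on the TMM scale was the one nearest the controls on the first principal component. The difference between the lines was log2 -1.25 ± 0.39 SE with all libraries (adjusted p = 0.0108, edgeR interaction). Without these 2 libraries, chosen after seeing the data, it was -1.77. Leaving out libraries that run against the trend enlarges the difference, so that value carries no test. Treated SW948 still held 10.5 times the ABCB1 level of treated HT55.

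ABCC2 and ABCG2 each stayed a pump of 1 line. ABCC2 in HT55 with itraconazole stood at 39.1, 42.9, 30.8 and 35.8 CPM, overlapping the controls (log2 0.16, 95% interval -0.062 to 0.39, adjusted p = 0.200, edgeR). It passed without treated replicate 3 (0.26, adjusted p = 0.0141) and had the opposite sign on plain totals (-0.0089). In SW948 it gave 1, 5, 5 and 2 counts with the drug, 13 in all against 10 with DMSO, which was too few for the fit (exact permutation test on CPM from plain library totals, two-sided p = 0.4, where 0.0286 is the smallest p the design allows). ABCG2 gave 34, 18, 22 and 24 counts in treated SW948 (log2 -0.28, 95% interval -0.73 to 0.17, adjusted p = 0.233, edgeR), and on plain totals this passed as a fall (-0.61, adjusted p = 0.0213). Treated HT55 gave 0, 1, 1 and 3 ABCG2 counts against none in the controls (the same exact permutation test, two-sided p = 0.143).

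**Figure D3:**
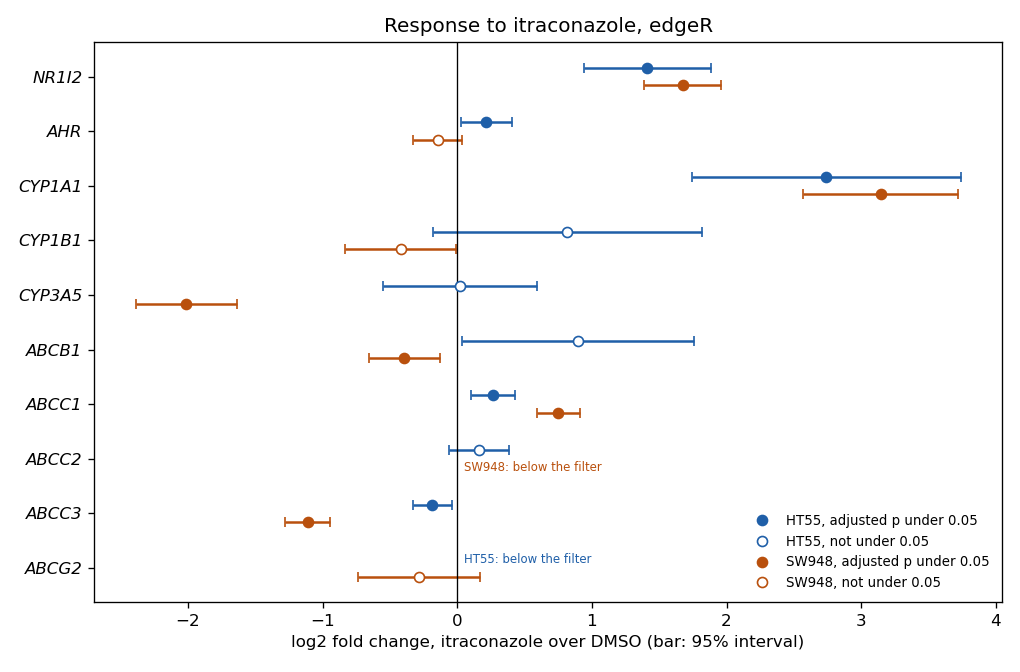
Log2 fold change of each gene, itraconazole over DMSO, in HT55 (blue) and SW948 (orange), with 95% intervals from edgeR's quasi-likelihood fit; filled points have an adjusted p under 0.05. NR1I2 and CYP1A1 lie to the right of 0 in both lines, while CYP3A5 at -2.01 and ABCC3 at -1.11 lie far left in SW948.

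The plot of fold changes places the 2 responses next to each other. Of the 8 genes tested in both lines, 6 had a line-by-treatment difference that passed, against 53.9% of all genes tested (24.8% higher, 29.1% lower). In 1 of them, ABCC1, the change was more positive in SW948, and in the other 5 it was more negative. Besides those given above, AHR differed by log2 -0.33 ± 0.13 SE (adjusted p = 0.0307), and CYP1B1 by -1.22 ± 0.48 SE (adjusted p = 0.0365). The CYP1B1 value was -0.82 without treated replicate 3 of HT55 (adjusted p = 0.144) and passed in 7 of the 16 fits that left out 1 library, the AHR difference in 10 of 16. Summed over the 5 pumps, the level was 33.3 ± 2.24 RPKM in treated HT55, where the libraries overlapped their controls, and 41.5 ± 5.74 RPKM in treated SW948, where they lay below theirs. Within that sum the share of ABCC1 in SW948 went from 10.1% to 23.6% and that of ABCC3 from 41.0% to 26.0%, while ABCB1 held 47.8% and 49.1%.

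Other genes of drug handling were taken in 5 lists. Their counts stand beside the 27.5% of all genes that rose and 26.5% that fell in HT55, and the 38.9% and 41.3% in SW948. Of 12 partners and targets of AHR, 10 were tested in each line. In SW948 9 rose and none fell, and AHRR, the AHR repressor, was the 1 that did not pass (0.35 ± 0.26 SE, adjusted p = 0.228). In HT55 4 rose, 1 fell and 5 did not pass. The medians were 1.09 and 0.35 on the log2 scale, and on plain totals 0.76 and 0.18. TIPARP, an AHR target that feeds back on the receptor, rose by log2 1.86 ± 0.16 SE in SW948 and 0.72 ± 0.15 SE in HT55. ALDH3A1, an aldehyde dehydrogenase, rose in SW948 (1.13 ± 0.13 SE) and fell in HT55 (-0.76 ± 0.16 SE), a difference that passed (1.92 ± 0.22 SE, adjusted p = 9.03e-07, edgeR interaction). The list also holds HSP90AA1, HSP90AB1 and PTGES3, which are general chaperone genes of high level. The difference between the lines was more positive in SW948 for 9 of the 10 genes and more negative for none, where 24.8% and 29.1% of all genes were.

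The 22 partners and targets of PXR and its relative CAR went both ways. In HT55 10 were tested, of which 4 rose and 1 fell (3 and 2 on plain totals), and in SW948 11 were tested, of which 5 rose and 3 fell (4 and 5 on plain totals). The medians were 0.20 and -0.12. The obligate partner RXRA rose in both lines (0.77 ± 0.061 SE and 0.66 ± 0.074 SE), as did POR, which passes electrons to all microsomal cytochromes (0.85 ± 0.089 SE and 1.25 ± 0.073 SE). CES2, an intestinal carboxylesterase, fell in both (-0.75 ± 0.13 SE and -1.63 ± 0.090 SE). CYP2B6 stood apart between the lines, at 0.37 ± 0.14 SE in HT55 (not passing on plain totals, 0.21, adjusted p = 0.266) and -1.70 ± 0.15 SE in SW948, with a difference of -2.04 ± 0.22 SE (adjusted p = 4.54e-07, edgeR interaction). CYP2B6 shares long stretches with a pseudogene, so its counts are uncertain. ALAS1, the first enzyme of haem synthesis, rose in SW948 (1.41 ± 0.081 SE) and gave 0.094 ± 0.081 SE in HT55, or -0.068 on plain totals. CYP3A4 was listed at 0 counts in all 16 libraries.

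**Figure D4:**
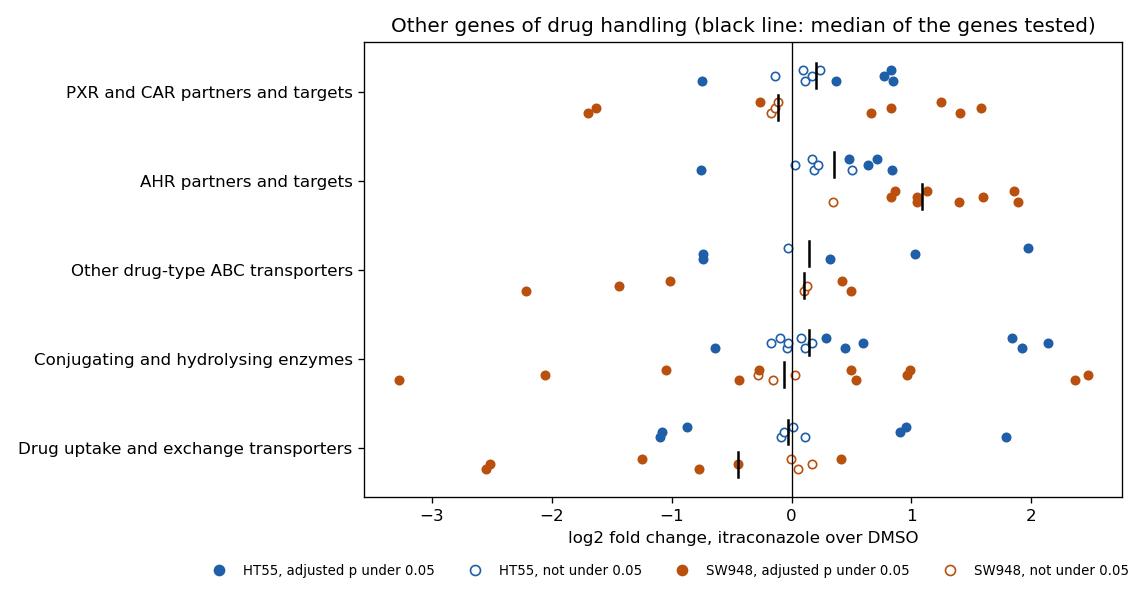
Log2 fold change, itraconazole over DMSO, of every gene tested in 5 lists of drug-handling genes, in HT55 (blue, upper row of each list) and SW948 (orange, lower row), with filled points for an adjusted p under 0.05 and a black line at the median. In SW948 every AHR-list gene lies to the right of 0, with a median of 1.09, and the drug uptake list has a median of -0.44.

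The plot of the 5 lists shows the wide spread of the remaining 3. Of 11 other ABC transporters of the drug-exporting kind, 3 of the 6 tested in HT55 rose and 2 fell, and 2 of the 7 tested in SW948 rose and 3 fell. The list's median changed sign on plain totals in both lines (0.14 to -0.021 in HT55, 0.10 to -0.22 in SW948), and none then rose in SW948. ABCC5, a nucleotide exporter, was higher with the drug (1.03 ± 0.18 SE in HT55, 0.50 ± 0.079 SE in SW948, the latter 0.17 with adjusted p = 0.0904 on plain totals) and ABCC6 lower (-0.74 ± 0.12 SE and -2.22 ± 0.19 SE), the latter uncertain because it has near-identical pseudogenes. ABCA3, a lipid transporter, rose by 1.98 ± 0.25 SE in HT55 and 0.42 ± 0.12 SE in SW948, the latter not on plain totals (0.097, adjusted p = 0.510). The HT55 rise of ABCA3 was at a low level, from 1.18 to 4.65 CPM. ABCC10 fell by log2 -1.01 ± 0.099 SE in SW948 and gave -0.033 ± 0.082 SE in HT55. ABCC4 fell in HT55 (-0.74 ± 0.21 SE) and gave 0.13 ± 0.073 SE in SW948, or -0.20 on plain totals, where it passed (adjusted p = 0.0471, edgeR).

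Of the 25 conjugating and hydrolysing enzymes, 14 were tested in each line. In HT55 6 rose and 1 fell, with a median of 0.14, or 5 and 3 with a median of -0.024 on plain totals. In SW948 6 rose and 5 fell, with a median of -0.063, or 5 and 8 on plain totals. EPHX1, the microsomal epoxide hydrolase, stood at 24.2, 24.6, 24.2 and 25.4 CPM in HT55 with DMSO and at 99.5, 134, 77.3 and 124 CPM with itraconazole. It rose by log2 2.14 ± 0.15 SE in HT55 and 2.47 ± 0.085 SE in SW948, and GSTM3, a glutathione transferase, by 1.84 ± 0.15 SE and 2.37 ± 0.18 SE. MGST1, a microsomal glutathione transferase, fell in HT55 (-0.64 ± 0.11 SE) and rose in SW948 (0.99 ± 0.064 SE), and the difference passed (1.65 ± 0.12 SE, adjusted p = 5.63e-09, edgeR interaction). UGT1A8 and UGT1A10 fell in SW948 (-3.28 ± 0.20 SE and -2.06 ± 0.19 SE) and were under the filter in HT55. These genes share all but their first exons with the rest of the UGT1A locus, so their counts are uncertain.

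Of 15 drug uptake and exchange transporters, 3 of the 10 tested in HT55 rose and 3 fell, and 1 of the 9 tested in SW948 rose and 5 fell. The medians were -0.027 and -0.44. SLCO4A1, an organic anion uptake carrier, was the 1 that rose in SW948 (0.42 ± 0.085 SE), though not on plain totals, where none did. It rose in HT55 too (0.96 ± 0.077 SE). SLCO2B1, another such carrier, rose in HT55 (1.79 ± 0.18 SE), where SW948 gave -0.0051 ± 0.18 SE (difference -1.77 ± 0.27 SE, adjusted p = 2.33e-05, edgeR interaction). SLC29A1, the equilibrative nucleoside transporter, and SLC22A3, an organic cation transporter, fell in HT55 (-1.10 ± 0.10 SE and -0.87 ± 0.12 SE) and in SW948 (-0.44 ± 0.061 SE and -0.78 ± 0.10 SE). SLC19A1, the reduced folate carrier, fell from 23.2 to 4.08 CPM in SW948 (-2.52 ± 0.17 SE) and gave -0.087 ± 0.19 SE in HT55 (difference -2.40 ± 0.28 SE, adjusted p = 1.13e-06, edgeR interaction). SLCO1B3 fell in both lines, by log2 -2.55 ± 0.11 SE in SW948 and -1.08 ± 0.33 SE in HT55. Its HT55 level was low, at 1.97 CPM with DMSO and 0.909 with itraconazole. The HT55 groups were close to touching, with a lowest control of 1.338 and a highest treated library of 1.332 CPM.

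Genes with the most similar profile were sought over the 16 libraries as the smallest root mean square difference in log2 CPM after centring each gene on its mean. For NR1I2 these were PTPRJ and NCR3LG1, both at 0.19, and TNFRSF21 at 0.25, beside a standard deviation of 0.90 for NR1I2 itself. For AHR the nearest was MICAL2 at 0.16. For ABCC1 the nearest were TCP1 at 0.068 and HSP90AA1 at 0.078, for ABCC3 SUDS3 at 0.093, and for CYP3A5 TTF2 at 0.26, beside standard deviations of 0.44, 0.41 and 0.90. BCL6 lay 0.54 from CYP1A1 (standard deviation 1.61), PAPSS2 0.42 from ABCB1 (2.20) and PARM1 0.36 from CYP1B1 (0.96). The 16 libraries share lines and treatments, so these values describe likeness of profile over 4 groups and carry no test.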

How the data were processed

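RNA of 16 samples labelled by line and treatment was sequenced as 50-base single-end TruSeq libraries. The deposited values are raw counts of reads per Ensembl gene, made by the authors on hg19 (the submitters' notes name TopHat, HTSeq and DESeq, and the annotation release, the versions and the use of strand are not given in the sources used here). Alignments that were not unique made up 22.0 to 27.9% of everything tallied in a library, and totals rows for unassigned reads were left out. Symbols, coordinates and exon lengths came from GENCODE for GRCh37, and promoter windows from RefSeq.

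Counts were tested with edgeR 4.0.16 in R 4.3.3 (TMM, filterByExpr, quasi-likelihood, Benjamini-Hochberg over all genes), each line on its 8 libraries. Line differences and interactions were fitted on all 16. Genes under the filter got an exact permutation test over 70 assignments. SE is the log2 change over the root of F. The fits were tested on simulated data. Alternatives were DESeq2 1.42.0, other scalings, filters and thresholds, a replicate block and leaving out each library. Libraries of a group differed by more than sampling noise, and the treated ones by more than the DMSO ones. Between pairs of libraries the chi-square per gene was 1.43 to 2.34 in HT55 with DMSO and 4.88 to 40.4 with itraconazole. In SW948 it was 2.45 to 4.85 and 3.76 to 21.5. Each fit used 1 dispersion per gene for treated and DMSO libraries alike.

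Named genes were all 10 genes in each comparison. From each list and line the rule took at most 2 genes with the largest rise and 2 with the largest fall, if called, without overlap between groups and at a mean log2 CPM of at least 1. A few further list genes (RXRA, POR in SW948, AHRR, CYP3A4, and values given beside the other line) were named after their values were seen, and 3 similar profiles per gene were sought, of which the nearest are printed. Some genes that the rule names are not reported here. The genes, lists and tests were chosen with earlier results of these data known.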

Additional observations from a re-analysis of the deposited data

Results flagged for a closer look

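Across 39 groups of 4 libraries examined, 1 had a library far from the others: ABCB1 in DMSO replicate 1 of SW948, at 160.1 CPM against 172 to 174 in the other 3, where the gap took 0.866 of the group's range, above Dixon's limit for 4 libraries. Chance flags about 1 in 20 groups. Without that library the SW948 change of ABCB1 was -0.42 (adjusted p = 0.0133, edgeR).

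The responses of the 2 lines differed by the interaction test in 6 of the 8 genes tested in both lines, as log2 change in SW948 minus that in HT55. ABCC1 was the 1 with a positive difference (0.51). The others were AHR (-0.33), ABCC3 (-0.90), CYP1B1 (-1.22), ABCB1 (-1.25) and CYP3A5 (-2.0). The fitted value of ABCG2 (-3.82) is not counted, since the gene passed the filter through SW948 and had 0 counts in untreated HT55.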

How the results depend on the processing

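In SW948 the 6 genes called became 9 on plain library totals, 8 with no filter, 5 in the fit on all 16 libraries and 4 with an absolute log2 change of at least 1, and 6 to 7 when 1 library was left out. In HT55 the 5 called became 3 on plain library totals, 3 with the replicate block and 2 at an adjusted p under 0.01. They became 2 with an absolute log2 change of at least 1 and ranged from 3 to 7 when 1 library was left out. The count was 4 with no filter, 6 in DESeq2's Wald test and 7, ABCG2 included, in the fit on all 16 libraries. For the interaction the 7 (ABCG2 included) became 3 at the stricter p and 4 with the minimum change, with 4 to 7 when 1 library was left out. The 9 of 10 genes apart between untreated lines, ABCC2 and ABCG2 included, became 5 when 10 counts were asked for in every library, which tests fewer genes, and 8 to 9 when 1 library was left out. The cause of the other moves was not tested. CYP3A5 in HT55 changed sign on plain totals (-0.13), with the replicate block (-0.066) and when 1 library was left out (-0.31 to 0.19), and ABCC2 in HT55 on plain totals (-0.0089). With the minimum change, calls over all genes were 1169 in HT55, 4001 in SW948, 2760 for the interaction and 4394 between untreated lines, against 6553, 10030, 7141 and 10055. On plain totals the higher and lower calls were 2279 and 4710 in HT55 (3340 and 3213 with TMM), 3145 and 6832 in SW948 (4865 and 5165), 2295 and 4929 for the interaction (3292 and 3849), and 6134 and 3918 between untreated lines (5059 and 4996).

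The deviations of same-numbered libraries were at most weakly correlated (r from -0.045 to 0.14, above the mean with other numbers in 6 of 8 pairs). Number 3 had the highest r in each line, 0.14 in HT55 and 0.13 in SW948. The numbers were not used as pairs. The replicate block lost AHR (0.21, adjusted p = 0.0513) and ABCC3 (-0.19, adjusted p = 0.0704) in HT55. Leaving out treated replicate 3 of HT55 and replicate 1 of SW948, chosen after seeing the data, left 6 interaction calls, without CYP1B1 (-1.02, adjusted p = 0.0577). For ABCG2 in HT55 and ABCC2 in SW948, depth limits what could be seen.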
